A study of Homo sapiens with 16 samples.

Results

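The ubiquitin pathway genes described here are 212 of the 2646 distinct genes named in the MDA231 table of enriched Gene Ontology terms, which itself rests on a list of 3626 annotated genes. They are the genes of the 17 terms whose name contains ubiquitin, less those also filed under DNA damage response, DNA repair, cell division, autophagy or endoplasmic reticulum (ER) stress, and less TRAF2, TRAF6, TNFAIP3 and SIRT1. The 17 terms named 277 genes. The 5 other terms took out 64 of them (23.1%), TRAF2, TRAF6 and SIRT1 among these, and TNFAIP3 was dropped by name. The members were thus chosen by the listing itself, together with the term names, so their presence is a description and was not tested.

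MDA231 is a triple-negative human breast cancer line and HCC1954 an ERBB2-positive one. Brain metastatic derivatives of these lines, MDA231-BrM and HCC1954-BrM, were injected into mice as xenografts, and the brains were taken 30 days later. The mice received 250 mg/kg of 5-fluorocytosine 12 hours before harvest. In Flura-seq, as the method is known, cells able to convert 5-fluorocytosine put the resulting fluorinated uridine into new RNA, which an anti-BrdU antibody then recovers. Each line has 4 input libraries and 4 immunoprecipitated (IP) libraries, 16 in all, and these groups share the injection and the harvest time. No strain, sex or age of the mice, and no pooling of animals, is given in the sources used here.

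The data hold 1 enrichment table per line and no value per library. Expression levels, fold changes, sequencing depth and the spread between replicates cannot be given for any member, and the values that follow carry no replicate error. The sources used here do not say how the list was chosen or whether its genes were higher or lower in IP RNA. "Listed" therefore carries no direction.

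Ubiquitin is a small protein attached to other proteins by an enzyme cascade. An E1 enzyme activates it, an E2 enzyme carries it, and an E3 ligase selects the substrate. Chains linked through lysine K48 of ubiquitin are best known for sending proteins to the proteasome, and chains linked through K63 for signalling and membrane traffic. Deubiquitinases remove the chains. In breast cancer cells the system is known for control of growth factor receptors, NF-kappaB signalling and cell cycle proteins.

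Positive regulation of protein ubiquitination had the lowest p-value of the 17 terms, and the 3 other terms on regulation had the highest. It held 26 of its 64 background genes (40.6%, exact 95% binomial interval 28.5 to 53.6), where 21.6% of all 16792 background genes were listed. The fold enrichment was 1.88 in the authors' deposited table, with unadjusted p = 0.00112 and adjusted p = 0.216. The members in it included the NEDD4-family adaptors NDFIP1 and NDFIP2, the ligases PELI1, RCHY1 and RNF111, the E2 enzymes UBE2D1 and UBE2L3, and AXIN1, a scaffold of the beta-catenin destruction complex. The largest term, protein ubiquitination, held 102 of 359 genes (28.4%, exact interval 23.8 to 33.4) at 1.32-fold enrichment in the authors' deposited table (adjusted p = 0.306). Ubiquitin-dependent protein catabolic process followed with 56 of 182 genes (30.8%, exact interval 24.2 to 38.0) at 1.42-fold enrichment in the authors' deposited table (adjusted p = 0.435).

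None of the 17 terms passed an adjusted p of 0.05 in the authors' deposited table, where adjusted p ran from 0.216 to 0.965. Of all 6488 terms tested, 15 passed (0.231%) in the authors' deposited table, or 4.78% of the 314 terms it lists. At an unadjusted p under 0.05 the count was 15 of 17 ubiquitin terms, against 214 of the 314 listed terms (68.2%) in the authors' deposited table. Folds of the 17 ran from 1.32 to 2.70 in the authors' deposited table, where 4.63 is the largest possible. The 3 terms with the highest listed share were small. Histone H2A monoubiquitination had 7 of 12 genes (58.3%, exact interval 27.7 to 84.8), and degradation through the multivesicular body pathway had 8 of 16 (50%, exact interval 24.7 to 75.3). Regulation of proteasomal ubiquitin-dependent catabolism had 6 of 12 genes, with an interval of 21.1 to 78.9% that takes in the listed share of the background. The intervals cover the draw of genes alone, are not adjusted for the number of terms, and do not treat shared genes. Only enriched terms, 314 of the 6488 tested, are listed, so shares above that of the background follow from that selection.

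**Figure D1:**
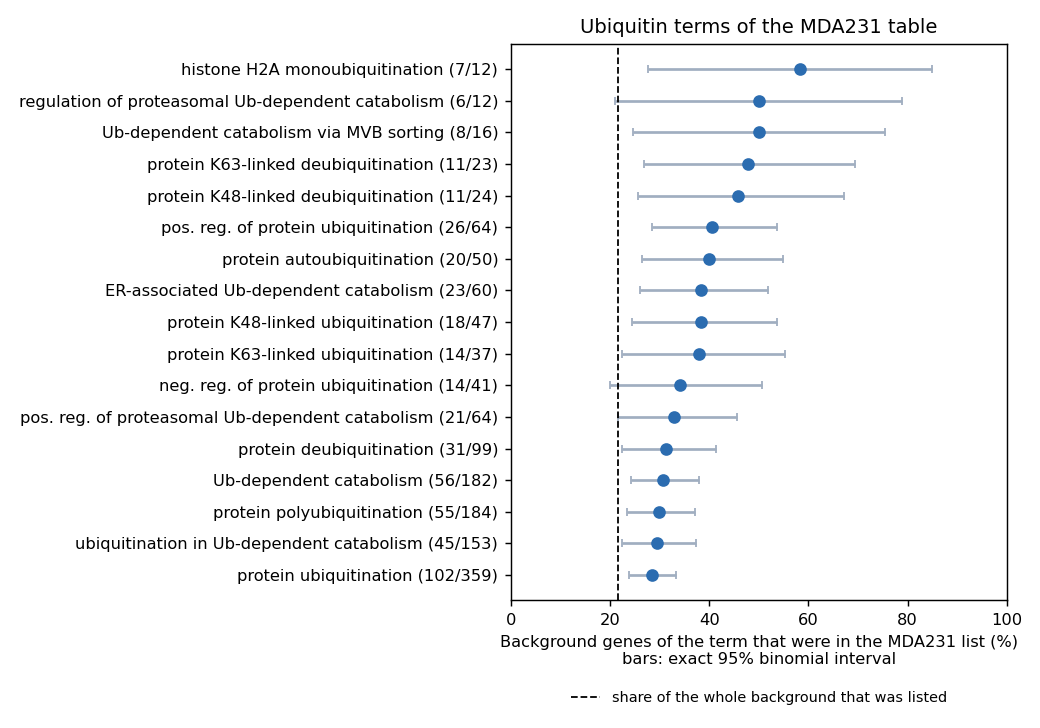
Each point is 1 of the 17 ubiquitin terms of the MDA231 table, with the percent of its background genes that were listed on the x axis, its exact 95% binomial interval as a bar and the listed and background genes in the label. All points lie to the right of the dashed line at 21.6%, the listed share of the whole background. So do 14 of 17 intervals. The table holds only enriched terms, 314 of the 6488 tested, so a place to the right follows from that selection.

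The terms overlapped in part. Ubiquitin-dependent protein catabolic process shared 24 genes with protein deubiquitination, which is 42.9% of the first and 77.4% of the second. The members in both were BAP1 and 16 ubiquitin-specific proteases. Protein polyubiquitination shared 20 of its 55 genes with the 45 of the term for ubiquitination in catabolism (36.4% and 44.4%). Most members stood in few ubiquitin terms: 131 in 1, 47 in 2 and 34 in 3 or more. Of the 131, 62 were in protein ubiquitination alone, and 32 of those 62 were subunits of cullin-RING ligases. ARIH2, a RING-between-RING ligase, was in the most, 7, followed by the RING ligase RNF115 in 6. ITCH, RCHY1, RNF126, UBE2D1, UBE2D2 and UBE2L3 were in 5 each. By class, the 34 held 21 ligases or ligase subunits, 8 deubiquitinases, 4 E2 enzymes and the mitotic kinase PLK1.

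**Figure D2:**
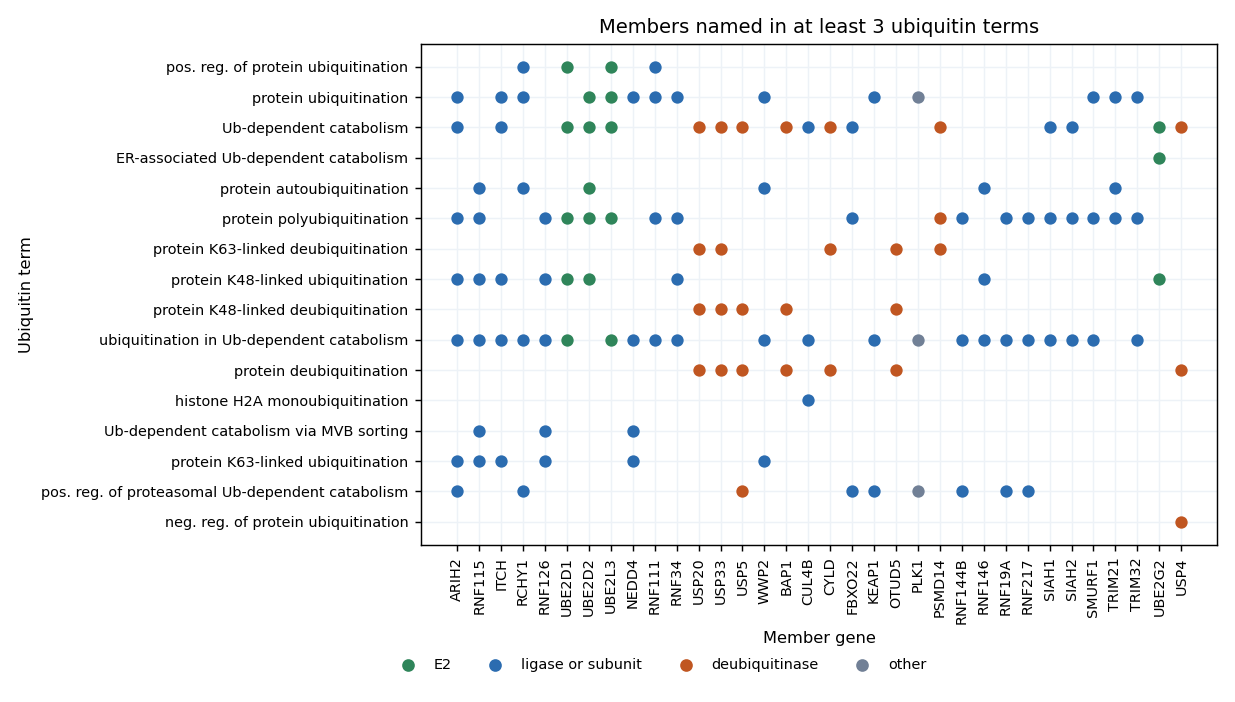
Each column is 1 of the 34 members named in at least 3 ubiquitin terms and each row 1 of the 17 ubiquitin terms. A dot marks that the term names the gene, coloured by class. The row for regulation of proteasomal ubiquitin-dependent catabolism has no dot. Deubiquitinases and conjugating enzymes or ligases take separate rows except for the 2 broad rows of catabolism and polyubiquitination and the row for positive regulation of proteasomal catabolism.

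No E1 enzyme was a member. UBA1, the main E1 of ubiquitin, was taken out through the DNA damage term, and ATG7, the E1-like enzyme of autophagy, through autophagy. The tables name a listed gene only through an enriched term, so a gene that is not named may still have been listed.

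The E2 class had 9 members, and 14 of its 42 genes were named in the table (33.3%, exact interval 19.6 to 49.5). UBE2D1 (ENSG00000072401; GRCh38 chromosome 10, 58334975 to 58370753, plus strand) and UBE2D2 (ENSG00000131508; chromosome 5, 139526431 to 139628433, plus strand) are close paralogues that serve many RING ligases. UBE2D1 was in 7 terms and UBE2D2 in 6, and K48-linked ubiquitination named both. UBE2L3 (ENSG00000185651; chromosome 22, 21549447 to 21624034, plus strand), an E2 that works with HECT and RING-between-RING ligases, was in 7 terms. UBE2J1 and UBE2J2, which are anchored in the ER membrane, and UBE2G2, a soluble E2 recruited there, were all members and all in the ER-associated degradation term. UBE2O, a large enzyme with both E2 and E3 activity, was in K63-linked ubiquitination. UBE2L6, the E2 of the ubiquitin-like protein ISG15, and ATG3, an E2-like enzyme of autophagy, were filed under protein ubiquitination. UBE2A, UBE2E2 and CDC34 stood in ubiquitin terms too and were taken out, UBE2A through DNA repair, UBE2E2 through the DNA damage term and CDC34 through cell division.

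Ligases and ligase subunits made up 113 of the 212 members (53.3%), of which 65 belong to catalytic families. HECT ligases, which carry ubiquitin on their own cysteine, gave 9 members. ITCH (ENSG00000078747; chromosome 20, 34363235 to 34511393, plus strand) was in 11 terms, WWP2 in 9, NEDD4 in 8 and SMURF1, known for degradation of TGF-beta receptors and SMADs, in 4. HERC1, HERC6 and the giant ligase HUWE1 were in 2 each, and HECTD3 in 1. The adaptors NDFIP1 and NDFIP2, which recruit NEDD4-family ligases to membranes, were members as well. NDFIP1, NDFIP2 and WWP2 were 3 of the 5 listed genes of negative regulation of protein transport and 3 of the 4 of negative regulation of transporter activity.

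RING-between-RING ligases, which combine RING and HECT chemistry, gave 6 members of 14 genes. They were ARIH2, RNF144B, RNF216, RNF19A, RNF217 and RNF31, the catalytic subunit of the linear chain assembly complex. All 6 were in at least 3 terms of the table. U-box ligases gave PPIL2 and WDSUB1, with UBE4B taken out. TRIM ligases gave 6 members, TRIM32 in 9 terms, TRIM21 in 8, TRIM13 and TRIM37 in 5, TRIM27 in 4 and TRIM2 in 1. TRIM21 is a cytosolic antibody receptor, and TRIM37 was also in histone H2A monoubiquitination. Of 76 TRIM genes, 11 were named (14.5%, exact interval 7.45 to 24.4).

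Other RING ligases were the largest class, with 42 members of 213 genes. MUL1, a ligase of the outer mitochondrial membrane, was in 7 terms, and RNF115, RNF126, RNF34 and SIAH2 were in 6 each. RCHY1, a ligase of p53, RING1, the catalytic RING of Polycomb complex 1, and SIAH1 were in 5. RNF111 and RNF146 are known for ligase activity on TGF-beta regulators and on proteins marked with poly(ADP-ribose). TNKS2, which places that mark for RNF146, was a member too. RNF43 and ZNRF3, the membrane ligases that remove Wnt receptors, were both members, each in 2 terms. RNF20 and RNF40, which act as a complex on histone H2B, were both members, as were the paralogues PJA1 and PJA2 and the Notch-pathway ligases MIB1, DTX2 and DTX4. UBR1, UBR3 and UBR4 recognise or resemble recognisers of N-terminal degrons, and LTN1 acts on stalled ribosomes. MARCHF5 is a further mitochondrial ligase. Of the 213 RING genes, 61 were named in the table (28.6%, exact interval 22.7 to 35.2).

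Cullin-RING ligases are modular, with a cullin scaffold, a RING subunit and exchangeable substrate receptors, and they gave 48 members. The core gave CUL4B, in 8 terms, CUL7, the RING subunit RNF7 and GLMN, an inhibitor of the RING subunit RBX1. Receptors outnumbered the core. BTB-domain receptors of CUL3 gave 18, led by KEAP1, the sensor of oxidative stress that targets NFE2L2, in 5 terms, and TNFAIP1 and KCTD13, which target RHOA, in 4 and 3. The rest were SPOPL, BTBD1, ENC1, KBTBD2, KBTBD6, KBTBD7 and the kelch proteins KLHL2, KLHL5, KLHL7, KLHL8, KLHL9, KLHL18, KLHL23, KLHL24 and KLHL36. SOCS-box and related receptors gave 15. These were SOCS1, SOCS3, SOCS6 and CISH, known as feedback inhibitors of cytokine receptors, ASB6, ASB8, ASB13, SPSB1, SPSB3, RAB40B, RAB40C, FEM1C, LRRC41, ZER1 and ZYG11B. F-box receptors gave 8, namely SKP2, which targets the inhibitor p27, FBXO22, FBXW4, FBXL4, FBXO9, FBXO3, FBXO30 and FBXW2. CUL4 receptors gave COP1, DCAF5 and DCAF6. BTB and SOCS-box receptors had a median of 1 term each in the whole table, against 5 for TRIM ligases. By share of the family, 21 of 74 BTB genes were named (28.4%, exact interval 18.5 to 40.1), 18 of 53 SOCS-box genes (34%, exact interval 21.5 to 48.3) and 11 of 68 F-box genes (16.2%, exact interval 8.36 to 27.1).

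Deubiquitinases gave 24 members, and 36 of the 92 deubiquitinase genes were named (39.1%, exact interval 29.1 to 49.9). Ubiquitin-specific proteases were 18 of these members, with 26 of 54 genes named (48.1%, exact interval 34.3 to 62.2) and 8 taken out. CYLD (ENSG00000083799; chromosome 16, 50742050 to 50801935, plus strand), a tumour suppressor that removes K63-linked and linear chains in NF-kappaB signalling, and USP33 were each in 9 terms. USP7, which stabilises MDM2 and p53, was in 7, and USP20, a close relative of USP33, in 5. USP4, USP5 and USP21 were in 4 each. USP5 disassembles free chains. USP18, the protease of ISG15, USP11, USP24, USP31, USP32, USP36, USP38, USP42 and USP46 were in 2 each, and USP53 and USP54 in 1. WDR48, the cofactor of USP46 and its relatives, was a member as well. The OTU family gave OTUD5, OTUD7B and OTUD4. BAP1, a tumour suppressor that removes ubiquitin from histone H2A, MINDY3 and PSMD14 completed the class.

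The terms on K48-linked and K63-linked chains named some of the same enzymes. K48-linked and K63-linked ubiquitination named 14 and 9 members and shared 4, ARIH2, ITCH, RNF115 and RNF126. K48-linked and K63-linked deubiquitination named 8 and 7 members and shared 4, OTUD5, OTUD7B, USP20 and USP33, which is 50% of the first and 57.1% of the second. No member was in both the ubiquitination and the deubiquitination term of the same chain, although TNFAIP3, dropped by name, was in both K48 terms. The listed shares were 38.3% (18 of 47 genes, exact interval 24.5 to 53.6) and 37.8% (14 of 37, 22.5 to 55.2) for K48 and K63 ubiquitination. They were 45.8% (11 of 24, exact interval 25.6 to 67.2) and 47.8% (11 of 23, 26.8 to 69.4) for deubiquitination, so the intervals of the 4 terms overlap.

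Few proteasome genes were members. PSMC1, an ATPase of the regulatory particle, was in 3 terms, PSMD9, an assembly chaperone, in 2, and PSMD5, a further chaperone, PSMD6, a lid subunit, and PSME1, a subunit of the interferon-inducible activator, in 1 each. With PSMD14, the deubiquitinase of the lid, in 5 terms, 6 proteasome genes were members. Of 50 proteasome genes other than PSMD14, 5 were named (10%, exact interval 3.33 to 21.8), where 13.3% of all protein-coding genes were named. Of the 19 genes of the core particle (PSMA and PSMB), 0 were named under their own identifier (exact interval 0 to 17.6). Of the 20 genes with a PSMC or PSMD symbol, PSMD14 included, 5 were named (25%, exact interval 8.66 to 49.1). These symbols cover the regulatory particle and chaperones, and PSMD5 and PSMD9 among the 5 are chaperones. A gene annotated as AC010132.3 (chromosome 7, 42909273 to 42932174, minus strand) was a member, and it overlaps the core gene PSMA2 by 15318 bases on the same strand, so reads of the pair may not be separable. AC010132.3 also overlaps C7orf25 by 3033 bases on the same strand. It was not counted with the proteasome genes. The COP9 signalosome, which switches cullins off, had 4 of 8 genes named, GPS1, COPS2, COPS4 and COPS8, all outside the ubiquitin terms.

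**Figure D3:**
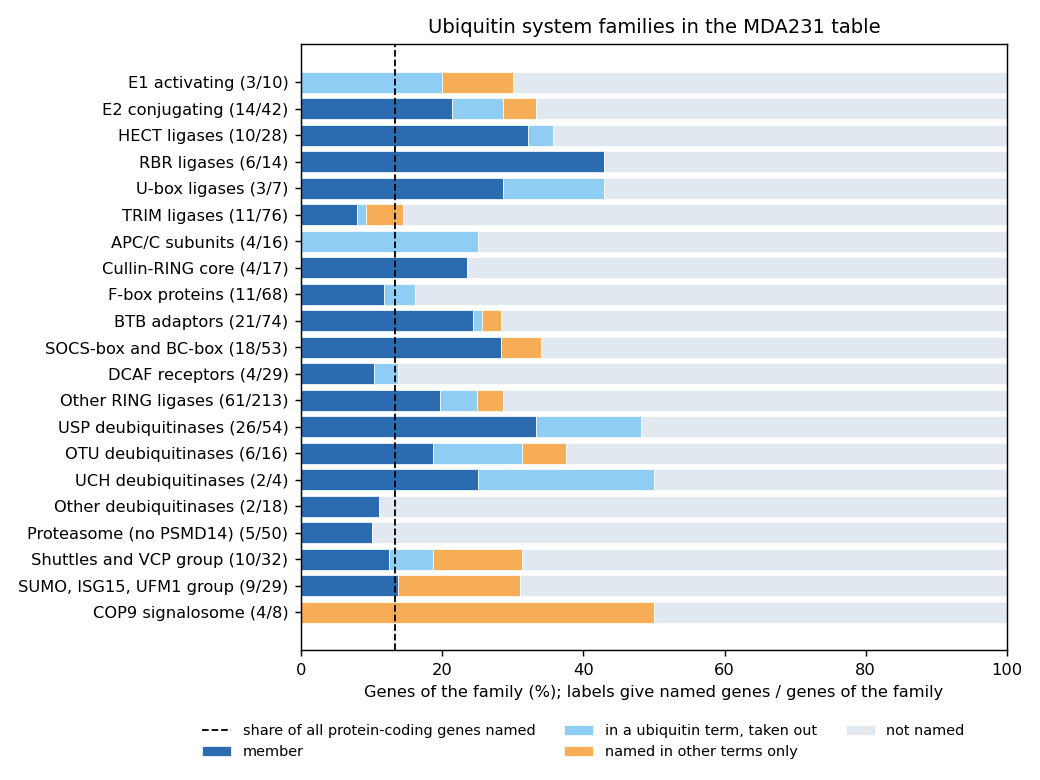
Each bar is an enzyme or subunit family of the ubiquitin system, split by the percent of its genes that are members, were in a ubiquitin term and taken out, were named in other terms only, or were not named; the dashed line marks 13.3%, the named share of all protein-coding genes. Ubiquitin-specific proteases have 26 of 54 genes named, and the proteasome without PSMD14 has 5 of 50. The exact interval of the latter, 3.33 to 21.8%, takes in the line. Most of the family genes were named through the ubiquitin terms, so the shares are a description.

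For scale, 2645 of 19951 protein-coding genes in the annotation were named (13.3%), and the 2646 named genes are 73.0% of the 3626 that were listed. All families together had 234 of 862 genes named (27.1%, exact interval 24.2 to 30.2), of which 159 were members, 41 were taken out and 34 stood in other terms only. Most of these genes were named through the ubiquitin terms, so the shares are a description. In the HCC1954 table, 0 of 30 named genes was a member or belonged to any of the families, and 0 of its 37 terms named ubiquitin. That list held 66 annotated genes against 3626, and the difference between the lines was not tested.

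A further 53 members lay outside the family lists, so the counts by family may miss a relative among them. ER quality control gave 8 members, all in the ER-associated degradation term, which held 23 of 60 genes (38.3%, exact interval 26.1 to 51.8). EDEM1, EDEM2 and MAN1B1 trim mannose from misfolded glycoproteins and were 3 of the 6 listed genes of ER mannose trimming. ERLEC1, a lectin, ERLIN1, a scaffold for degradation of IP3 receptors, STT3B, of the oligosaccharyltransferase, DNAJB9, a co-chaperone, and ANKZF1, of ribosome-associated quality control, were the others. AUP1 and UBXN8 of the shuttle group and the ligase RNF103 stood in that term as well, with PSMC1, TRIM13 and the E2 enzymes UBE2G2, UBE2J1 and UBE2J2. In histone H2A monoubiquitination, RING1, PCGF1, BCOR and RYBP, which act together in variant Polycomb complex 1, stood beside CUL4B and TRIM37. MED8, MED11, MED12 and MED20 of Mediator, a transcription coactivator, were filed under protein ubiquitination.

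The 13 kinases and signalling proteins had a median of 4 terms, against 2 for ligases and for deubiquitinases as a whole. Other classes reached this too. The median was also 4 for the 13 members left without a set class or role. It was 4 for the cullin-RING core, the OTU family, BAP1 and the 2 Polycomb members outside the families. It was 5 for TRIM ligases and for the ubiquitin-like group. PLK1, GSK3B and CDKN2A were each in 13 terms, the highest of any member, and DNAJA3, a mitochondrial co-chaperone, was in 12. GSK3B and PLK2, kinases that mark substrates for ligases, TRIB1, the pseudokinase adaptor of COP1, and PRICKLE1 were filed under positive regulation of proteasomal catabolism. CDKN2A encodes the cell cycle inhibitor p16 and the MDM2 inhibitor ARF, and its locus is known to be lost in the parental MDA231 line. No expression value of it was analysed here. ISG15 in 6 terms and UBD in 4, both ubiquitin-like proteins induced by interferon, the SUMO ligase PIAS1 in 9 and CDK5RAP3 of the UFM1 pathway in 3 were the ubiquitin-like group.

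Outside the ubiquitin terms, 114 members were named in 121 of the 297 other terms, and 98 (46.2%) were in ubiquitin terms alone. Members had a median of 2 terms in the table, as had the 2434 other named genes, although 28.3% of members and 40.6% of the others were in a single term. Members made up 8.01% of all named genes, the share to hold beside those that follow. The 3 terms on NF-kappaB signalling, a pathway that uses ubiquitin chains, named 86 genes, of which 19 were members (22.1%). Negative regulation of NF-kappaB activity had 10 members among its 24 listed genes (41.7%), which were CDK5RAP3, CDKN2A, CHP1, CYLD, DNAJA3, ITCH, PELI1, TRIM21, TRIM37 and USP7. Positive regulation of I-kappaB kinase signalling had 9 of 52 (17.3%), among them MUL1, NDFIP1, NDFIP2, RNF31, TRIM13, TRIM32 and UBD. PELI1 was the member in both. Negative regulation of I-kappaB kinase signalling had 2 of 15 (13.3%), DNAJA3 and OTUD7B. Members were chosen by their ubiquitin terms. How many background genes of the NF-kappaB terms also carry a ubiquitin term was not tested. Apoptotic process had 13 members among 141 listed genes (9.22%), near the share over all named genes. Of these members, 9 were ligases or ligase subunits, including SIAH1, SIAH2, RNF34, RNF144B, RNF216 and the CUL3 receptor TNFAIP1.

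The 13 terms on interferon or viruses named 226 genes, of which 20 were members (8.85%), again near the share over all named genes, and in 10 of the 13 the share was at or below it. In negative regulation of type I interferon production, 6 of the 14 listed genes (42.9%) were members, namely CYLD, ISG15, ITCH, OTUD5, RNF216 and UBE2L6. In regulation of interferon-gamma signalling it was 3 of 8 (37.5%), and in response to interferon-gamma 3 of 10 (30%). In viral process it was 6 of 76 (7.89%) and in defense response to virus 3 of 52 (5.77%). SOCS1, SOCS3, SOCS6 and PIAS1 were 4 of the 12 listed genes of the JAK-STAT cascade (33.3%). Of the terms with an adjusted p under 0.05 in the authors' deposited table, 6 named any member, and 15 members (7.08%) stood in at least 1 of them. Of the 2434 other named genes 823 did (33.8%), and the rule itself bears on this, since 4 of the 5 terms used to take genes out had an adjusted p under 0.05 in the authors' deposited table. Cell cycle named CUL4B, CYLD, SIAH1, SIAH2, TRIM21 and UHRF2, and protein phosphorylation named GSK3B, PLK1, PLK2 and TRIB1. Mitotic nuclear division named KLHL9 and PLK1, and DNA replication named KCTD13 and TNFAIP1. Intracellular protein transport named TOM1L1 and the type I interferon pathway ISG15.

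**Figure D4:**
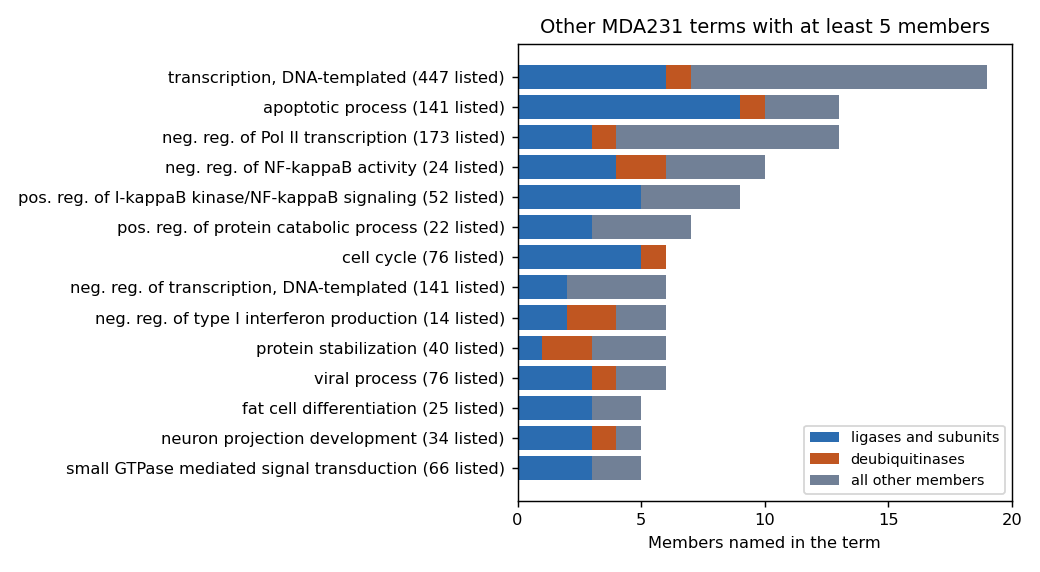
Bars give the number of members in each of the 14 other MDA231 terms that name at least 5 of them. They are split into ligases or ligase subunits, deubiquitinases and all other members, with the listed genes of the term in the label. Transcription is the longest bar with 19 members of 447 listed genes (4.25%), below the 8.01% that members make up of all named genes. Negative regulation of NF-kappaB activity has 10 of 24 (41.7%).

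The 250 bases before the RefSeq gene start (GRCh38.p14) were read for 178 of the 212 members, to see what promoter sequence the members share. Windows of lead genes of the main enzyme classes and of the 3 proteasome members with an antioxidant response element core (TGACNNNGC, the site of NFE2L1 and NFE2L2) are shown. The set was chosen after the matches were seen. The RefSeq start lies 31 to 106 bases inside the GENCODE 29 gene for 6 of the 7, but 34908 bases inside it for UBE2D2, whose window therefore stands before an internal start. Capitals mark a match, on either strand, to 1 of 9 motifs, here the GC box GGGCGG, the CCAAT box, the ETS core CCGGAAG, the E-box CACGTG and TGACNNNGC, and matches may overlap.
UBE2D1, chr10:58334756-58335005, plus strand: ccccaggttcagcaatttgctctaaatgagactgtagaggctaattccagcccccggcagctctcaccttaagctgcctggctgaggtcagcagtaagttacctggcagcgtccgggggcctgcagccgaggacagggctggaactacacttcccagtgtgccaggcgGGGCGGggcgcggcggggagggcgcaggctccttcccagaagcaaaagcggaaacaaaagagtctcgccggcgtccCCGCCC
UBE2D2, chr5:139561089-139561338, plus strand: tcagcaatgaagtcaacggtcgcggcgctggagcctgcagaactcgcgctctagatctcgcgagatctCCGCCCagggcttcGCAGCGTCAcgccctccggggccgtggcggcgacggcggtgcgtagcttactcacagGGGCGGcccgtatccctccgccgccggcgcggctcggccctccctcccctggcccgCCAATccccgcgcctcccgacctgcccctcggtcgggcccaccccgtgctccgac
ITCH, chr20:34363023-34363272, plus strand: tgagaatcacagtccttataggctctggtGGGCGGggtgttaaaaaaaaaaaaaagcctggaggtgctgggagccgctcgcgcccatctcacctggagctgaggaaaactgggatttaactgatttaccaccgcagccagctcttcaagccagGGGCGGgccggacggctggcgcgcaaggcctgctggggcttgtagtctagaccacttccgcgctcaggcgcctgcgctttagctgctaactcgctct
CYLD, chr16:50741906-50742155, plus strand: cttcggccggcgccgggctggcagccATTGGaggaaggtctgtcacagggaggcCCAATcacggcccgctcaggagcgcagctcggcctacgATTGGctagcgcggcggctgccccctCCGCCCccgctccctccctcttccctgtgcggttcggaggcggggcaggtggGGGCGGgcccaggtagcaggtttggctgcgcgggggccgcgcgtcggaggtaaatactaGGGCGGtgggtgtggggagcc
PSMD5, chr9:120842923-120843172, minus strand: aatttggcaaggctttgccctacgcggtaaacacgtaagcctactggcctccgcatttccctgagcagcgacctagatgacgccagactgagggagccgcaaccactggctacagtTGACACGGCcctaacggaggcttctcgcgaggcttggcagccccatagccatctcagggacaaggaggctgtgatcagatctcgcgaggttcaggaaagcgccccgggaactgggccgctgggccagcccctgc
PSMD9, chr12:121888540-121888789, plus strand: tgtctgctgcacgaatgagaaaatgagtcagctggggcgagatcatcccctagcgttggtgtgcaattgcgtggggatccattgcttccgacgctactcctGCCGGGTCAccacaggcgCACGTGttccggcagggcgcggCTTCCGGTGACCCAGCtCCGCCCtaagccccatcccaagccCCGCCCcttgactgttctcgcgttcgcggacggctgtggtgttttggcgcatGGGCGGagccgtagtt
PSME1, chr14:24135944-24136193, plus strand: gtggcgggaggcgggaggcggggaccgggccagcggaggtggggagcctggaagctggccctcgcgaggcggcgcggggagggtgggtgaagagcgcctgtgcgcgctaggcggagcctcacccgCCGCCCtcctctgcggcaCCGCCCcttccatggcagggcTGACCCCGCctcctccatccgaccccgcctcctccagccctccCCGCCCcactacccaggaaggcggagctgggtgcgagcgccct

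In these windows UBE2D1 and ITCH each had 2 GC boxes. CYLD had 3 GC boxes and 3 CCAAT boxes. UBE2D2 had 2 GC boxes, 1 CCAAT box and 1 TGACNNNGC match. PSMD9, with 2 TGACNNNGC matches, was the only printed window with more than 1. Of 5 proteasome members with a window, 3 held TGACNNNGC, as did 12 of 44 proteasome genes in all (27.3%) and 11.5% of all 15843 protein-coding windows. PSMD14, classed with the deubiquitinases and not among the 5, had a window without it. Over all members the share was 12.4% (22 of 178). TGACNNNGC did not stand alone in the 44 proteasome windows. The ETS core was in 11 of the 44 (25%) and 2 of the 5, against 11.8% of all windows. CCAAT was in 40.9% of the 44 against 34.5%, GC boxes in 59.1% against 56.0% and TATA boxes in 11.4% against 9.23%. The E-box was in 6.82% against 7.84%, and the NRF1, cAMP response element and YY1 sites were in 0 of the 44. GC boxes stood in 71.3% of member windows, 68.3% of windows of the other named genes (here and below on sequence and length, the named genes outside the ubiquitin terms) and 56.0% of all protein-coding windows. The ETS core stood in 21.9%, 17.4% and 11.8%, and the TATA box TATAAA in 3.93%, 5.16% and 9.23%. CCAAT stood in 29.8%, 35.5% and 34.5%. Member windows thus lay nearer to those of other named genes than to all protein-coding windows for GC and TATA boxes. The median ratio of observed to expected CpG was 0.834 in members, 0.830 in other named genes and 0.737 in all windows. No binding was measured.

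Member genes were somewhat longer than others. Their median gene length was 43841 bases (quartiles 19048.5 to 83781.5), against 34945 for the other named genes and 26925 for all protein-coding genes in GENCODE 29. The longest coding transcript had a median of 3781 bases in members, 3456.5 in other named genes and 2930 in all. UBR4 had the longest, 15906 bases with 106 exons, followed by HERC1 with 15137 and HUWE1 with 14796. HECT members had a median of 6401 bases and E2 members 3010. Deubiquitinase members had a median of 18 exons against 10 in members as a whole.

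Uridine, the base that takes the label, made up a median of 26.4% of member transcripts (quartiles 22 to 30.1). The median was 25.4% in other named genes and 24.6% in all protein-coding genes. Of 211 members with a transcript, 124 (58.8%) lay above the median of all protein-coding genes, as did 54.9% of the other named genes. NDFIP2 at 34.7%, MINDY3 at 34.7%, SIAH1 at 34.6% and UBE2D1 at 34.1% were near the top, and ISG15 at 15% and RNF126 at 15.9% were lowest. UBE2D2, the paralogue of UBE2D1, had 28.0%. Gene length, uridine content and expression level were not separated, and their part in the listing was not tested.

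**Figure D5:**
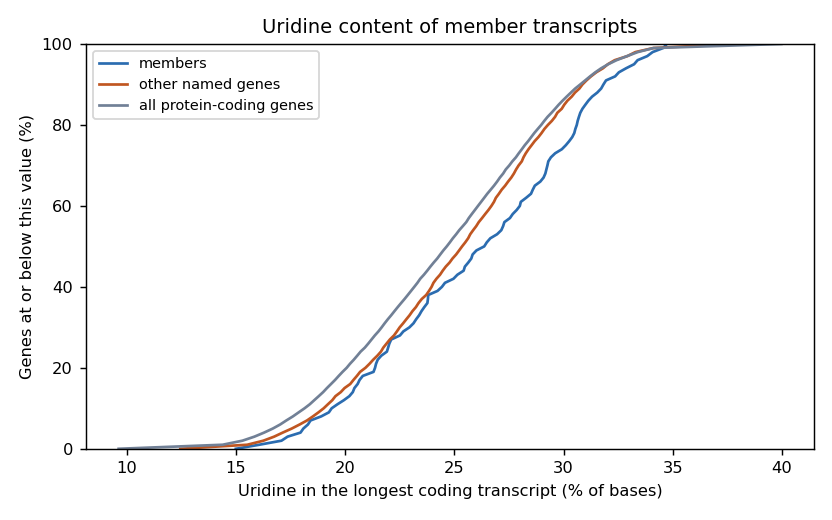
Lines give the percent of genes (y axis) at or below each uridine content of the longest coding transcript (x axis, percent of bases) for 211 members, 2366 other named genes and all 19641 protein-coding genes. The members' upper quartile, 30.1%, exceeds those of the other named genes (28.5%) and of all protein-coding genes (28.2%), with medians of 26.4%, 25.4% and 24.6%.

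Members lay on 23 chromosomes. Chromosome 1 had 23, chromosomes 3 and 16 had 17 each (8.02%, where 5.63% and 5.79% of the other named genes lie there), and chromosome 19 had 4 (1.89% against 5.83%). Within 100000 bases of each other lay 9 pairs of members. KBTBD6 and KBTBD7, intronless neighbours 57086 bases apart on chromosome 13, are close paralogues whose reads may be shared. PSME1 and RNF31 lay 7715 bases apart on chromosome 14, SPHK1 and UBE2O 1590 bases apart on chromosome 17, and UBE2L3 and PPIL2 41974 bases apart on chromosome 22. Of the members, 74 (34.9%) overlapped another protein-coding gene, 62 on the opposite strand. No share over other genes stands beside this count or the 9 pairs, so neither is read as a trait of the members. Strand use in the counting is not given in the sources used here, so reads in those stretches, such as CUL7 with KLC4 over 13169 bases, may not be assignable to 1 gene.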

How the data were processed

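Per the labels' protocols, polyadenylated RNA was captured on oligo(dT) beads, precipitated with 2.5 µg of anti-BrdU antibody for each brain, and turned into libraries by a PCR cDNA kit. STAR and HTSeq, and the builds GRCh38 and GRCm38, are named in the submitters' processing notes, without versions. The authors deposited 1 table per line. Per the file headers its columns are numbers of genes per term, list and background, an enrichment p-value with adjusted p-values, and a fold enrichment (a ratio of shares). No source used here names the enrichment tool or the choice of genes. The number of tested terms was recovered from p and its Bonferroni value.

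From these, terms were selected by name and genes pooled. The deposited p-values were copied and no test was run. Exact (Clopper-Pearson) 95% intervals cover the draw of genes only. Symbols matched for 276 of 277 ubiquitin-term genes, the last by GENCODE 29, which also gave positions and transcripts. Families (22) count RefSeq protein-coding symbols; 25 USP17L copies were left out. Members, families and lists were chosen with earlier results of these data known, CDC34 was added to the E2 family and the roles of members outside the families were set after values were seen. Any member may be named with its class, and values go to the 5 members of a class in most terms, to members of small classes and to genes a shared pattern rests on, chosen after their values were seen. Some genes are not reported here. Protein sequences were not used here. Set rules, intervals and motif search were checked on simulated data. Python 3.11.15, NumPy 2.4.6, pandas 2.3.3 and SciPy 1.17.1 were used.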

Additional observations from a re-analysis of the deposited data

How the results depend on the processing

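Of 15 counts recomputed under alternatives, 12 were within 1.5 times the count as reported. Requiring at least 2 ubiquitin terms left 81 of 212 members, of which 56.8% were ligases or ligase subunits, near the 53.3% of the full set. Counting catalytic ligase families alone gave 65 in place of 113. With no genes of overlapping terms taken out, 179 genes had a term outside the ubiquitin terms in place of 114, since 64 of the 65 genes put back have such terms by construction; the set was then 277 genes. Terms with an unadjusted p under 0.05 gave 200 members. Allowing names on the proteasome, SUMO, cullins, NEDD8 or ISG15 as well gave 236 from 18 terms. The only term this added was protein sumoylation. None of the 17 ubiquitin terms had under 10 background genes. Family genes named in at least 2 terms numbered 172 in place of 234. No paired analysis was possible because the tables hold no value per library, so leaving out a replicate could not be done either. The depth behind the list is unknown here.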
